A study of Mus musculus with 12 samples.

Results

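Heat shock proteins are chaperones that hold, fold or help to degrade other proteins, and many of their genes are switched on together when proteins lose their fold. The group described here was chosen by name and holds 10 genes: the inducible cytosolic Hsp70 genes Hspa1a and Hspa1b, the constitutive Hsp70 gene Hspa8, the Hsp110 gene Hsph1, the Hsp40 gene Dnajb1, the Hsp90 genes Hsp90aa1 and Hsp90ab1, the small heat shock protein gene Hspb1, and the mitochondrial chaperonin genes Hspd1 and Hspe1. All probe sets annotated to 1 of these symbols alone were taken. They numbered 22 and covered 9 of the 10 genes, out of 45037 probe sets and 18194 genes tested. Hsp90ab1 had no probe set under its symbol alone and was not analysed here.

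In the cytosol, Hsp40 proteins bring unfolded clients to Hsp70, Hsp110 proteins release nucleotide from Hsp70, and Hsp90 takes over clients such as steroid receptors and kinases. The stress-inducible genes of this system are driven by heat shock factor HSF1, which binds as a trimer to repeats of a short element in their promoters. In the kidney, Hsp70 and the small heat shock protein Hsp25, the product of Hspb1, are known as abundant in the inner medulla, where cells live in concentrated salt and urea.

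The study compared kidneys of wild-type (WT) mice with those of AT1A receptor-deficient mice (KO, genotype AGTR1A-KO), to find genes of the kidney that respond to angiotensin II through that receptor. All animals were males of strain F1 (C57BL6 X 129/SvEv), 2.5 months old, with a treatment label that names NS diet in every group. In each genotype 3 mice were taken at baseline and 3 after 2 days of infusion with angiotensin II (ANG II) at 1 μg/kg/min, giving 4 groups of 3 Affymetrix Mouse Genome 430 2.0 arrays. The labels describe the control groups as baseline, and do not say whether they received a pump or vehicle, or in which cells the receptor was deleted.

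Each deposited value was a ratio to the median of that probe set over the 12 arrays, so a ratio of 1 is the middle of the series. Such ratios keep no level: they cannot be compared between genes, and they cannot show whether the markers of kidney cells were present or absent. Array medians ran from 0.986 to 1.014. The probe set of Agtr1a, the receptor gene, read 1.36 to 1.40 in WT baseline arrays, against 0.923 to 1.04 in KO baseline, 0.957 to 1.00 in WT ANG II and 0.917 to 1.05 in KO ANG II arrays. It therefore separated the genotypes at baseline and not under ANG II, and whether its probes lie in the deleted part was not tested. In whole kidney, fewer cells of a type and less RNA per cell cannot be told apart.

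Because most of these genes are known targets of HSF1, RefSeq promoter windows of assembly GRCm38.p6, from 250 bases before to 50 after each transcript start, were searched for the head-to-head motif GAANNTTC and the tail-to-tail motif TTCNNGAA. Each reads the same on both strands, and the motifs may overlap, which then spells a run of 3 or more units. Of the 7 genes with a window, 6 (85.7%) held at least 1 of these motifs, against 4587 of 27025 mouse genes (17%). A run of at least 3 units was present in Hspd1, Hspe1 and Hsph1, that is 42.9% of the 7 genes, against 179 genes (0.662%) of all. The windows of Hspa1a, Hspb1, Hsph1 and Hspe1 are printed 5′ to 3′ on the strand of the gene, to show the motif of each kind of member, with the motifs in capitals.
Hspa1a, chr17:34972107-34972406, minus strand: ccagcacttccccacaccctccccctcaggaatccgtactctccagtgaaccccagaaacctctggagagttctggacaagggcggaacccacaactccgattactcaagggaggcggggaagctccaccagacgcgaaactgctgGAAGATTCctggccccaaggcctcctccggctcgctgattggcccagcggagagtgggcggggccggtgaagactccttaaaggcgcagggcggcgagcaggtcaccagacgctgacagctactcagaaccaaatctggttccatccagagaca
Hspb1, chr5:135887669-135887968, plus strand: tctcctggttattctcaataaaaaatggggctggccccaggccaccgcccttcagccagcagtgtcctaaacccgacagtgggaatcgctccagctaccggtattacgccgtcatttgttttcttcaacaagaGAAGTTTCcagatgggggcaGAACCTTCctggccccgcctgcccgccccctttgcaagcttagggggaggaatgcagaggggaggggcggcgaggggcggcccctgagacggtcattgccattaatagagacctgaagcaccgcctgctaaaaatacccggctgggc
Hsph1, chr5:149636287-149636586, minus strand: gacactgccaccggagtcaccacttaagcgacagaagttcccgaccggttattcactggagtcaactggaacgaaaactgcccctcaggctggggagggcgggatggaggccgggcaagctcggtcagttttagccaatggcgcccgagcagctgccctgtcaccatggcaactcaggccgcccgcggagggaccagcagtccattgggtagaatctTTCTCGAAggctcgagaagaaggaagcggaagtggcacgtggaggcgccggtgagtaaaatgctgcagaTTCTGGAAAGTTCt
Hspe1, chr1:55087898-55088197, plus strand: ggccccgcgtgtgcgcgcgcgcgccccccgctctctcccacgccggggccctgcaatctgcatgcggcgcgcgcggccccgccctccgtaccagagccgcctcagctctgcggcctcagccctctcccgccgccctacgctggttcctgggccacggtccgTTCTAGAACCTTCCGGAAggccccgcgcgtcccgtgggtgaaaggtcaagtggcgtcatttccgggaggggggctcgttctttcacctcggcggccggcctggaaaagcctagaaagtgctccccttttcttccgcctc
Counted from the transcript start, the motif of Hspa1a began at -104, those of Hspb1 at -117 and -97, those of Hsph1 at -33, 37 and 42, and those of Hspe1 at -89, -84 and -79. The window of Hspa1b differed from that of Hspa1a at 4 of 300 bases, as C44T, T47C, T249G and C276T, counted from the first base of the window with Hspa1a first, and carried its motif at the same place. Hspd1 and Hspe1 lie back to back on chromosome 1, the window of Hspe1 overlapped the second window of Hspd1 by 285 bases, and the same run of 4 units lies in both. The first of the 2 Hspd1 windows held 0 matches. No match was found in the 2 windows of Dnajb1. A match is a description of letters and not evidence that a factor was bound.

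A part of the heat shock probe sets fell in WT kidneys after ANG II infusion, and the rest did not pass the test. Of the 22 probe sets 9 fell and 0 rose (limma, adjusted p under 0.05), where 13.3% of all probe sets fell and 10.9% rose. At an unadjusted p under 0.05, 0 of the 22 rose. By leading probe set, the one with the plainest name, 6 of 9 genes fell: Hspa8, Hspe1, Dnajb1, Hsph1, Hsp90aa1 and Hspd1. Hspa8 was counted by 1 of its 4 probe sets, and the others were not called. Of all 18194 genes, 14.5% fell and 9.61% rose by the same rule. The median log2 change was -0.37 over the 22 probe sets, against 0.05 over all probe sets. The count of 9 was 4 under quantile normalization, and 6 without WT baseline replicate 1 or WT ANG II replicate 2 or 3. In KO kidneys 3 of the 22 probe sets fell and 0 rose, 1 of Hspa8 and both of Hspb1, where 6.31% of all probe sets fell and 3.6% rose, and the median was -0.02 against 0.05 over all. By leading probe set these are 2 of 9 genes, against 5.73% of all genes that fell and 4.28% that rose. At an unadjusted p under 0.05, 0 rose.

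**Figure D1:**
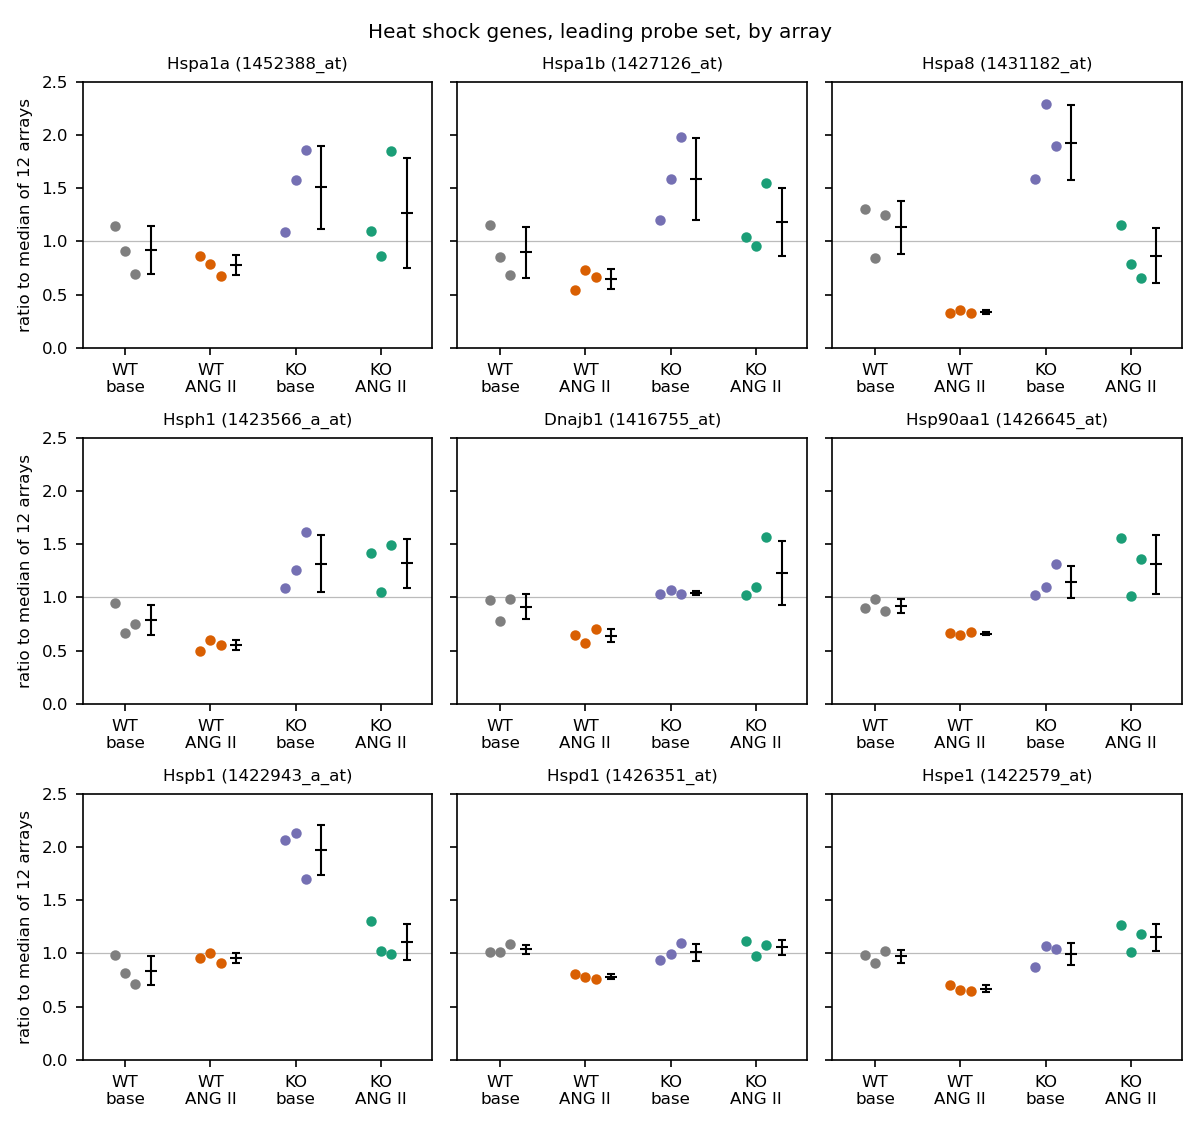
Ratio to the median of 12 arrays (y axis, linear, from 0) for the leading probe set of each of the 9 genes, by group (x axis). Points are the 3 arrays of a group and bars the mean ± SD; the WT ANG II arrays lie below 1 for every gene shown except 1 array of Hspb1 (1.01), and Hspb1 is highest in KO baseline arrays (1.70 to 2.13).

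The inducible Hsp70 genes Hspa1a and Hspa1b are near-identical copies on chromosome 17 (34969359 to 34972156 and 34956429 to 34959238), and their probe sets may read both transcripts, so the copies cannot be told apart here. The Hspa1b probe set 1427126_at read 1.16, 0.856 and 0.685 in WT baseline arrays and 0.547, 0.728 and 0.669 in WT ANG II arrays. It read 1.20, 1.58 and 1.98 in KO baseline arrays and 1.04, 0.961 and 1.55 in KO ANG II arrays. Each KO baseline array lay above each WT baseline array, though the closest pair was 1.20 and 1.16, and each KO ANG II array lay above each WT ANG II array. The difference between genotypes was 0.82 ± 0.22 on the log2 scale at baseline (SE, n = 3 per group, limma, adjusted p = 0.0403) and 0.85 ± 0.22 under ANG II (limma, adjusted p = 0.017). Neither response passed the test, with log2 changes of -0.45 in WT (limma, adjusted p = 0.147) and -0.43 in KO (limma, adjusted p = 0.226), and the responses differed by 0.02 with a 95% interval of -0.65 to 0.69.

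For Hspa1a, the probe set 1452388_at read 0.698 to 1.15 in WT baseline, 0.679 to 0.863 in WT ANG II, 1.09 to 1.86 in KO baseline and 0.861 to 1.85 in KO ANG II arrays. The genotypes overlapped in both states, under ANG II only between 0.861 and 0.863. The log2 differences of 0.71 at baseline (limma, adjusted p = 0.117) and 0.64 under ANG II (limma, adjusted p = 0.0906) did not pass the test. The baseline call of Hspa1b ended without WT baseline replicate 2 or 3 or KO baseline replicate 2 or 3 (adjusted p = 0.109 to 0.177) and under quantile normalization (adjusted p = 0.0824). It also ended with the mean over the gene's 3 probe sets (adjusted p = 0.0566), and its call under ANG II ended without KO ANG II replicate 3 (adjusted p = 0.0754) and under quantile normalization (adjusted p = 0.086). Under ANG II the call of Hspa1a was reached without KO ANG II replicate 2 (adjusted p = 0.0312).

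The remaining 2 probe sets of Hspa1b followed 1427126_at closely (r = 0.99 and 0.98 over 12 arrays). At baseline KO exceeded WT by 0.79 with 1427127_x_at (limma, adjusted p = 0.0448), and the difference of 0.64 with 1452318_a_at did not pass the test (limma, adjusted p = 0.107). Under ANG II they gave 0.67 (limma, adjusted p = 0.0426) and 0.69 (limma, adjusted p = 0.0448). These 3 calls were lost under quantile normalization (adjusted p = 0.0929 to 0.167), and those under ANG II with array weights (adjusted p = 0.0717 and 0.0829). The baseline call was also lost without WT baseline, WT ANG II or KO baseline replicate 2 or 3 (adjusted p = 0.0513 to 0.189). Those under ANG II were also lost without WT baseline replicate 2, WT ANG II replicate 1 or 3, KO baseline replicate 2, or KO ANG II replicate 1 or 3 (adjusted p = 0.0533 to 0.174).

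Hspa8 encodes Hsc70, the Hsp70 present in unstressed cells, which also strips clathrin from vesicles. Its leading probe set 1431182_at read 1.30, 0.842 and 1.25 in WT baseline arrays and 0.327, 0.36 and 0.325 in WT ANG II arrays. In KO it read 1.59, 2.29 and 1.90 at baseline and 1.16, 0.785 and 0.656 under ANG II. WT ANG II arrays were the lowest and KO baseline arrays the highest, with no overlap with the other groups. The log2 change was -1.72 ± 0.20 in WT (3.30-fold lower, limma, adjusted p = 0.000109) and -1.18 ± 0.20 in KO (limma, adjusted p = 0.00285), and the responses differed by 0.54 with a 95% interval of -0.07 to 1.15 (limma, adjusted p = 0.267). KO exceeded WT by 0.78 at baseline (limma, adjusted p = 0.0354) and by 1.32 under ANG II (limma, adjusted p = 0.000643).

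The other 3 probe sets of Hspa8 moved less. Their ratios stayed between 0.758 and 1.22 on all 12 arrays, and none was called in any of the 5 comparisons. At baseline 1420623_x_at was higher in KO by 0.30 without passing the test (limma, adjusted p = 0.085), and was called under quantile normalization (adjusted p = 0.0441) and with array weights (adjusted p = 0.0385). In WT their log2 changes were -0.09, 0.16 and -0.09, where the leading probe set changed by -1.72. Over the 12 arrays the leading probe set correlated with them at r of 0.21 to 0.70, which is given as a description. Which transcripts the leading probe set reads was not tested, so the fall is that of 1 of 4 probe sets and not of Hspa8 as a whole. The genotype calls of this probe set ended under quantile normalization, at baseline (adjusted p = 0.255) and under ANG II (adjusted p = 0.0562), and the baseline call also without WT baseline replicate 2 or 3 or KO baseline replicate 2 or 3 (adjusted p = 0.0699 to 0.148). The WT and KO falls were called under every alternative run.

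**Figure D2:**
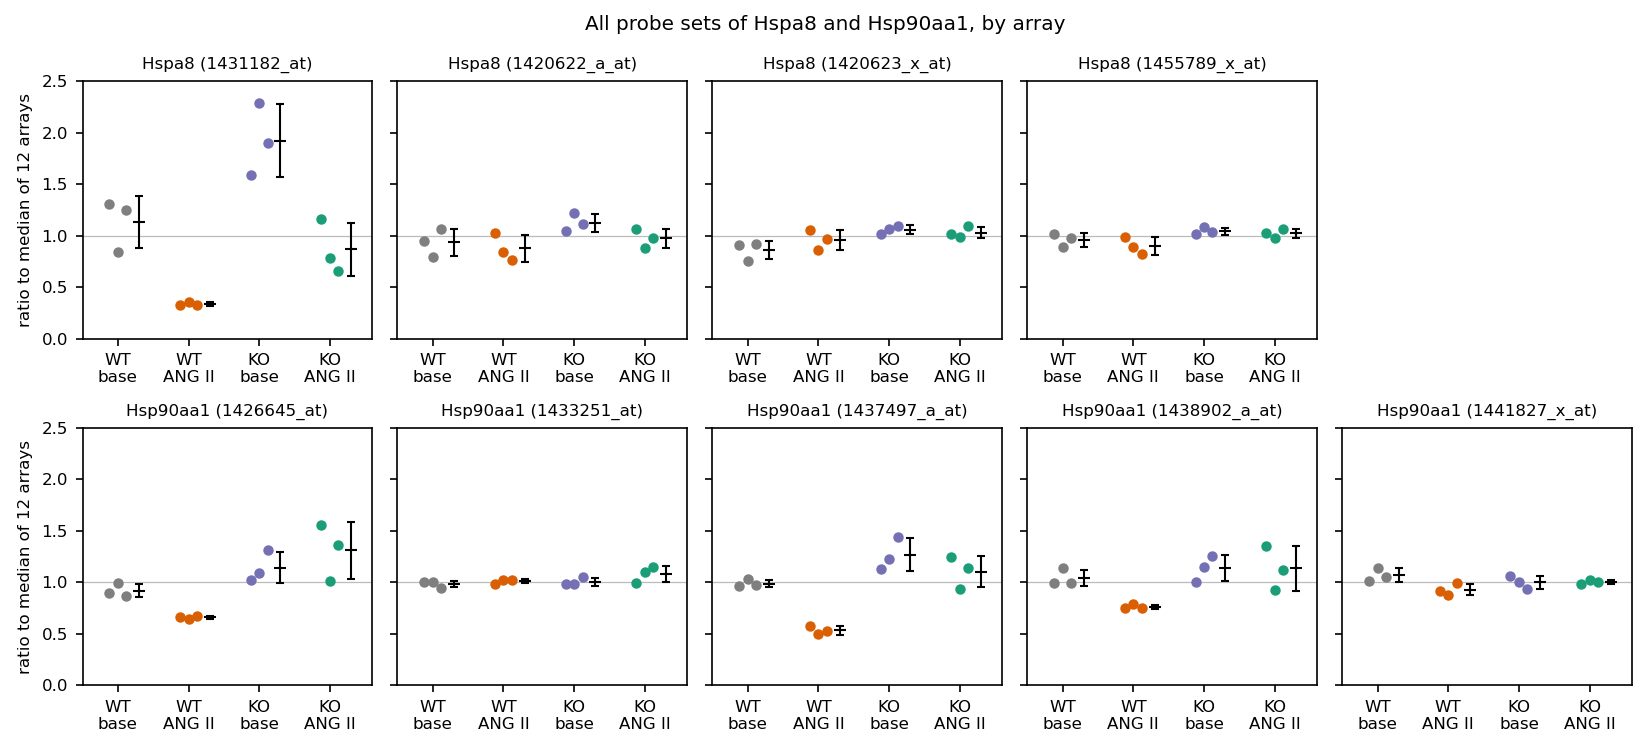
Ratio to the median of 12 arrays (y axis, linear, from 0) for the 4 probe sets of Hspa8 (top) and the 5 of Hsp90aa1 (bottom), by group (x axis). Points are arrays and bars the mean ± SD; 1 Hspa8 probe set spans 0.325 to 2.29 while the other 3 stay between 0.758 and 1.22, and for 3 of the 5 Hsp90aa1 probe sets every WT ANG II array lies below all other arrays.

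Hsph1 encodes Hsp110, a relative of Hsp70 that acts as its nucleotide exchange factor. Its leading probe set 1423566_a_at read 0.947, 0.669 and 0.749 in WT baseline, 0.502, 0.596 and 0.558 in WT ANG II, 1.09, 1.25 and 1.61 in KO baseline, and 1.41, 1.05 and 1.49 in KO ANG II arrays. All 6 KO arrays lay above all 6 WT arrays. KO exceeded WT by 0.74 ± 0.17 on the log2 scale at baseline (limma, adjusted p = 0.0183) and by 1.24 ± 0.17 under ANG II (2.37-fold, limma, adjusted p = 0.000236). In WT it fell by 0.50 on the log2 scale (limma, adjusted p = 0.0412), in KO the log2 change was 0.00 (limma, adjusted p = 0.99), and the responses differed by 0.51 with a 95% interval of 0.00 to 1.01 (limma, adjusted p = 0.202). The second probe set gave differences of 0.68 (limma, adjusted p = 0.0277) and 1.04 (limma, adjusted p = 0.000899) between genotypes, and its WT change of -0.35 did not pass the test (limma, adjusted p = 0.137).

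The WT fall of Hsph1 was close to the threshold. It was not called under quantile normalization (adjusted p = 0.553), with array weights (adjusted p = 0.0952), with the mean of both probe sets (adjusted p = 0.0729), or without WT baseline replicate 1 or 3, any 1 WT ANG II replicate or KO baseline replicate 2 (adjusted p = 0.0511 to 0.182). Its baseline difference was not called without WT baseline replicate 2 or 3 or KO baseline replicate 2 or 3 (adjusted p = 0.0542 to 0.0781), while that under ANG II was called under every alternative run.

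Dnajb1 encodes the Hsp40 protein that delivers clients to Hsp70. Its leading probe set 1416755_at read 0.978, 0.783 and 0.982 in WT baseline and 0.646, 0.575 and 0.701 in WT ANG II arrays, with no overlap. In KO it read 1.03, 1.07 and 1.03 at baseline and 1.02, 1.09 and 1.57 under ANG II, and these groups overlapped. It fell by 0.51 ± 0.14 on the log2 scale in WT (limma, adjusted p = 0.0215), while the log2 change in KO was 0.21 (limma, adjusted p = 0.364). The responses differed by 0.72 ± 0.20 (limma, adjusted p = 0.0393). KO exceeded WT by 0.92 under ANG II (limma, adjusted p = 0.00081) and by 0.87 with the second probe set (limma, adjusted p = 0.000504), while at baseline they differed by 0.20 (limma, adjusted p = 0.45) and 0.41 (limma, adjusted p = 0.0761). The genotypes did not overlap at baseline for either probe set, and the second was called there with array weights (adjusted p = 0.0367).

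The second probe set of Dnajb1 changed by -0.26 in WT (limma, adjusted p = 0.148), and its responses differed by 0.46 (limma, adjusted p = 0.129). For the leading one, the WT fall was not called under quantile normalization (adjusted p = 0.302) or without WT baseline replicate 1 or 3 or WT ANG II replicate 2 (adjusted p = 0.0669 to 0.0864). The difference of the responses was not called under quantile normalization (adjusted p = 0.226) or with the mean of both probe sets (adjusted p = 0.0522). It was also lost without WT baseline replicate 1 or 3, WT ANG II replicate 1 or 2, any 1 KO baseline replicate or KO ANG II replicate 3 (adjusted p = 0.0544 to 0.0926).

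Hsp90aa1 encodes the inducible cytosolic Hsp90. Its leading probe set 1426645_at read 0.897, 0.989 and 0.87 in WT baseline and 0.664, 0.643 and 0.674 in WT ANG II arrays, and the lowest WT baseline array lay above the highest WT ANG II array. In KO it read 1.02, 1.09 and 1.31 at baseline and 1.55, 1.01 and 1.36 under ANG II, with overlap. The log2 change was -0.47 ± 0.14 in WT (limma, adjusted p = 0.0233) and 0.18 ± 0.14 in KO (limma, adjusted p = 0.41), and the responses differed by 0.66 ± 0.19 (limma, adjusted p = 0.0463). Under ANG II, KO exceeded WT by 0.96 (1.95-fold, limma, adjusted p = 0.000365), and at baseline by 0.31 (limma, adjusted p = 0.201).

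The probe set 1437497_a_at of Hsp90aa1 showed a larger fall in WT, from 0.96, 1.03 and 0.97 at baseline to 0.576, 0.493 and 0.522 under ANG II, a log2 change of -0.90 ± 0.12 (limma, adjusted p = 2e-04). Another, 1438902_a_at, fell by 0.45 on the log2 scale (limma, adjusted p = 0.0198). Its fall was not called under quantile normalization (adjusted p = 0.11) or without WT baseline replicate 2 or WT ANG II replicate 3 (adjusted p = 0.0734 and 0.0565). Under ANG II, its KO excess of 0.56 (limma, adjusted p = 0.00774) was lost under quantile normalization (adjusted p = 0.063). The remaining 2 of the 5 probe sets, 1433251_at and 1441827_x_at, changed by 0.04 (limma, adjusted p = 0.733) and -0.20 (limma, adjusted p = 0.0921) and were called in no comparison. The WT fall of the leading probe set was not called under quantile normalization (adjusted p = 0.238) or without WT baseline replicate 1 or 2 or WT ANG II replicate 2 or 3 (adjusted p = 0.0525 to 0.0783), whereas that of 1437497_a_at was called under every alternative run. The difference of the responses was not called with the replicate block (adjusted p = 0.0561), with a pseudocount of 0.1 (adjusted p = 0.051), under quantile normalization (adjusted p = 0.171), or without any 1 array other than KO baseline replicate 3 or KO ANG II replicate 2 (adjusted p = 0.0634 to 0.108). For 1437497_a_at that difference was 0.70 (limma, adjusted p = 0.0168), and it was not called under quantile normalization (adjusted p = 0.158).

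Hspb1 encodes Hsp25, a small heat shock protein that binds unfolded proteins without ATP and affects actin filaments, and its values followed another order. Its leading probe set 1422943_a_at read 0.984, 0.82 and 0.711 in WT baseline and 0.956, 1.01 and 0.912 in WT ANG II arrays, which overlapped. In KO it read 2.07, 2.13 and 1.70 at baseline and 1.30, 1.02 and 0.994 under ANG II, and the lowest KO baseline array lay above every array of the other groups. KO exceeded WT by 1.24 ± 0.13 on the log2 scale at baseline (2.36-fold, limma, adjusted p = 0.000257) and by 0.20 under ANG II (limma, adjusted p = 0.305). In KO it fell by 0.83 ± 0.13 on the log2 scale (limma, adjusted p = 0.00193), in WT the log2 change was 0.20 (limma, adjusted p = 0.274), and the responses differed by -1.04 ± 0.19 (limma, adjusted p = 0.00424).

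The second probe set of Hspb1, 1425964_x_at, gave 1.36 for KO against WT at baseline (limma, adjusted p = 0.000547), -0.99 in the KO response (limma, adjusted p = 0.00246) and -0.95 for the difference of the responses (limma, adjusted p = 0.0203). These 3 comparisons share the KO baseline arrays, so the high values of those arrays enter each. All 3 calls of the leading probe set were made under every alternative run. Those of the second were lost under quantile normalization in the KO response (adjusted p = 0.0525) and in the difference of the responses (adjusted p = 0.166), the latter also without WT baseline replicate 3 or KO ANG II replicate 3 (adjusted p = 0.0535 and 0.0554).

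Hspd1 and Hspe1 encode Hsp60 and its lid Hsp10, which together fold proteins in the mitochondrial matrix. For Hspd1 the probe set 1426351_at read 1.01, 1.01 and 1.09 in WT baseline and 0.811, 0.779 and 0.76 in WT ANG II arrays, with no overlap. It read 0.94, 0.991 and 1.10 in KO baseline and 1.11, 0.98 and 1.08 in KO ANG II arrays, with overlap. For Hspe1 the probe set 1422579_at read 0.989, 0.906 and 1.03 in WT baseline, 0.707, 0.66 and 0.643 in WT ANG II, 0.872, 1.07 and 1.04 in KO baseline, and 1.26, 1.01 and 1.18 in KO ANG II arrays. The WT ANG II arrays were thus the lowest of the series for both genes.

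In WT, Hspd1 fell by 0.40 ± 0.08 on the log2 scale (limma, adjusted p = 0.00483) and Hspe1 by 0.54 ± 0.10 (limma, adjusted p = 0.00303), with -0.52 for its second probe set (limma, adjusted p = 0.000771). In KO the log2 changes were 0.07 (limma, adjusted p = 0.633) and 0.21 (limma, adjusted p = 0.206). The responses differed by 0.47 ± 0.12 for Hspd1 (limma, adjusted p = 0.0248) and 0.75 ± 0.15 for Hspe1 (limma, adjusted p = 0.00669). KO exceeded WT under ANG II by 0.43 for Hspd1 (limma, adjusted p = 0.00372) and 0.78 for Hspe1 (limma, adjusted p = 0.000253), whereas at baseline the differences were -0.04 (limma, adjusted p = 0.813) and 0.03 (limma, adjusted p = 0.913). Quantile normalization ended the calls of Hspe1 in WT (adjusted p = 0.0609) and of Hspd1 in the difference (adjusted p = 0.0927), but not that of the second Hspe1 probe set in WT, whose difference of 0.56 (limma, adjusted p = 0.0088) was then not called (adjusted p = 0.064). The Hspd1 difference was also lost without WT baseline replicate 3, KO baseline replicate 1 or 2, or KO ANG II replicate 1 or 3 (adjusted p = 0.056 to 0.0668).

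**Figure D3:**
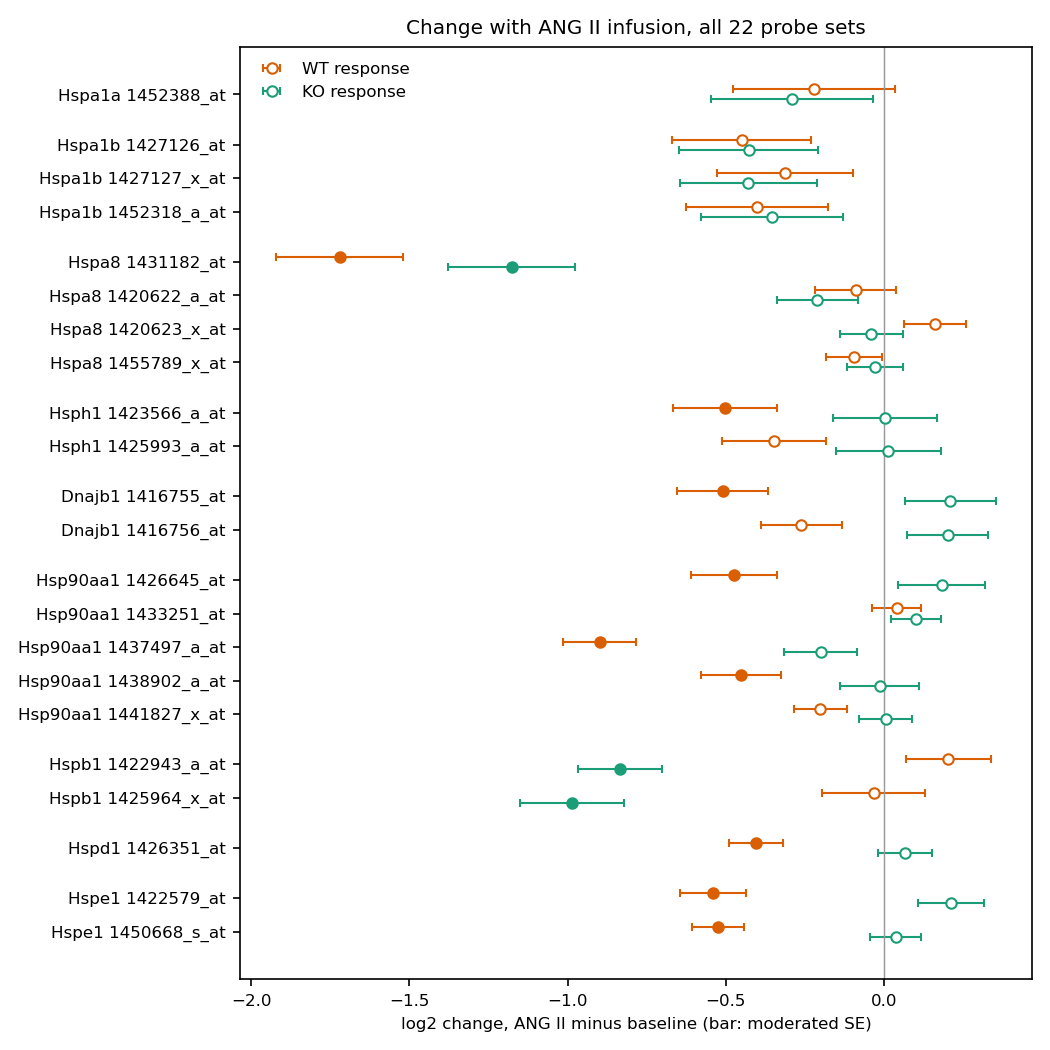
Log2 change from baseline to ANG II (x axis; WT response in orange, KO response in green, bars are moderated SE) for all 22 probe sets (y axis). Filled points have an adjusted p under 0.05 (limma); 9 points are filled in WT and 3 in KO, all of them below 0.

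Set against each other, the responses of the genotypes differed for 8 of the 22 probe sets, 6 higher and 2 lower in KO than in WT. Of all probe sets, 5.7% were higher and 4.08% lower. The 6 were both probe sets of Hspe1, those of Hsp90aa1 at 1426645_at and 1437497_a_at, and the leading ones of Dnajb1 and Hspd1, and the 2 were those of Hspb1. The median difference was 0.28 on the log2 scale, against -0.01 over all probe sets. The count was 4 without WT baseline replicate 3 or KO ANG II replicate 3, 5 without KO baseline replicate 1 or 2, and 2 under quantile normalization (1 higher and 1 lower). By gene, 4 of 9 were higher and 1 was lower, against 6.95% and 3.29% of all 18194 genes.

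At baseline, 7 of the 22 probe sets were higher in KO than in WT and 0 were lower, where 4.87% of all probe sets were higher and 1.65% lower. They were both probe sets of Hspb1, both of Hsph1, 2 of Hspa1b and the leading one of Hspa8. By leading probe set the count was 4 of 9 genes, with Hspa8 counted by 1 of its 4 probe sets. Of all genes, 4.52% were higher and 2.04% lower. At an unadjusted p under 0.05, 0 of the 22 were lower. The median difference was 0.33, against -0.03 over all probe sets. The count fell to 2, the probe sets of Hspb1, when WT baseline replicate 2 or 3 or KO baseline replicate 2 or 3 was left out.

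Under ANG II, 14 of the 22 probe sets were higher in KO than in WT and 0 were lower, where 11.7% of all probe sets were higher and 8.17% lower. By leading probe set the count was 7 of 9 genes, all but Hspa1a and Hspb1, against 13.7% and 7.88% of all genes. Hspa8 was counted by 1 of its 4 probe sets, and the others were not called. At an unadjusted p under 0.05, 0 of the 22 were lower. The median difference was 0.66, against -0.04 over all probe sets, and the count was 9 under quantile normalization. This comparison shares its WT ANG II arrays with the WT response, so the low values of those arrays enter both.

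**Figure D4:**
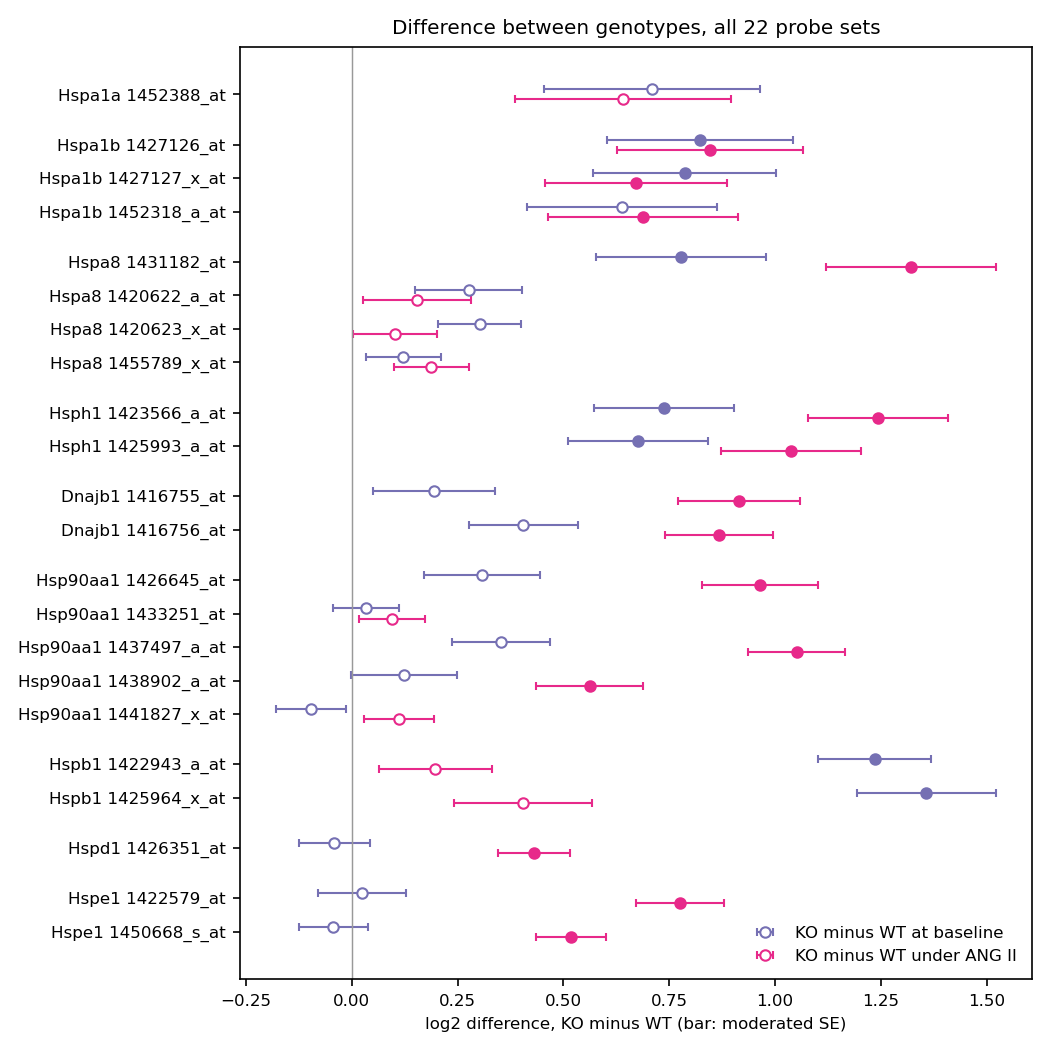
Log2 difference between KO and WT (x axis; at baseline in purple, under ANG II in pink, bars are moderated SE) for all 22 probe sets (y axis). Filled points have an adjusted p under 0.05 (limma); 7 points are filled at baseline and 14 under ANG II, all of them above 0.

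The arrays of each group were compared by 2 means of log2 ratios. Over the leading probe sets of the 6 cytosolic genes Hspa1a, Hspa1b, Hspa8, Hsph1, Hsp90aa1 and Dnajb1, the mean ran from -0.26 to 0.09 in WT baseline, -0.82 to -0.74 in WT ANG II, 0.21 to 0.65 in KO baseline and -0.07 to 0.43 in KO ANG II arrays. Over Hspd1 and Hspe1 it ran from -0.06 to 0.08, -0.52 to -0.40, -0.14 to 0.10 and -0.01 to 0.25 in the same order. The WT ANG II arrays were lowest on both scales, while the KO baseline arrays lay above the WT baseline arrays on the cytosolic scale and overlapped them on the mitochondrial one. The cytosolic mean takes Hspa8 by 1431182_at, which moved more than the other Hspa8 probe sets. It also counts Hspa1a and Hspa1b separately, though these copies cannot be told apart here.

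**Figure D5:**
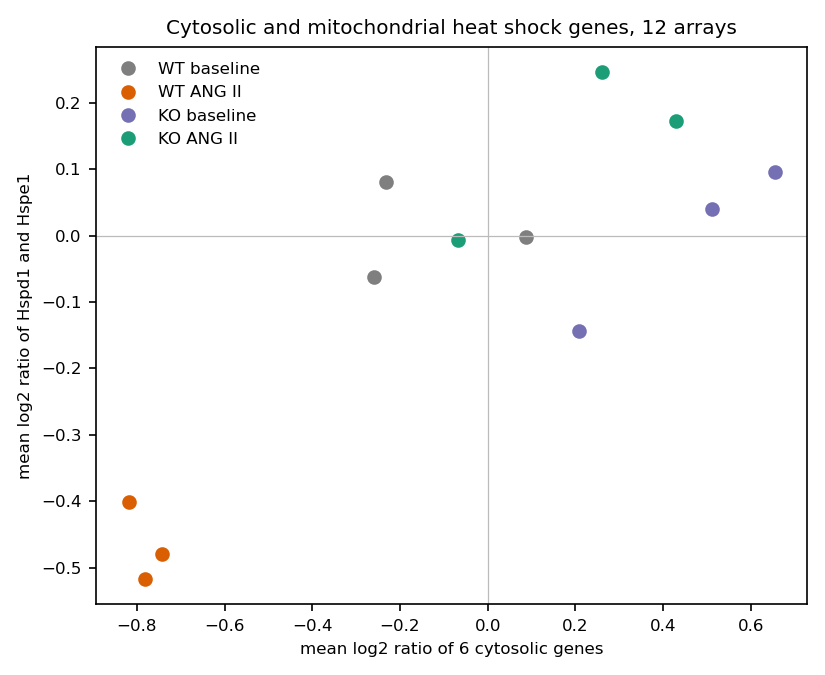
Mean log2 ratio of Hspd1 and Hspe1 (y axis) against that of 6 cytosolic heat shock genes (x axis), 1 point per array, coloured by group. WT ANG II arrays sit apart at the lower left (-0.82 to -0.74 and -0.52 to -0.40), and KO baseline arrays spread from 0.21 to 0.65 on the x axis.

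Other measures moved with the WT ANG II arrays. Within an array, log2 ratios spread with an SD of 0.268 to 0.342 in these arrays, against 0.164 to 0.180 in WT baseline, 0.222 to 0.262 in KO baseline and 0.165 to 0.196 in KO ANG II arrays. The mean of 3′ minus 5′ control probe sets, a measure of RNA quality, was 0.036 to 0.067 in WT ANG II arrays and -0.040 to 0.011 in all others. Of its controls, Actb gave 0.075 to 0.150 in WT ANG II arrays and -0.052 to 0.034 in all others. Gapdh gave -0.060 to 0.058 and -0.053 to 0.032, which overlapped. These values too are log2 ratios to each probe set's median. The mean log2 ratio of the poly(A) control transcripts, which by the array's design are added before labelling, was -0.89 to -0.21 in WT ANG II, -0.29 to 0.32 in WT baseline, 0.06 to 0.25 in KO baseline and -0.28 to 0.14 in KO ANG II arrays. Proximal tubule markers also shifted, with 6 of 14 lower and 2 higher in the WT response, and a mean log2 ratio of -0.34 to -0.19 in WT ANG II against -0.03 to 0.12 in WT baseline arrays. Of 8 endothelial markers 4 were lower and 1 higher (means -0.31 to -0.19 against -0.16 to 0.04), of 7 principal cell markers 2 were lower (-0.25 to -0.16 against 0.01 to 0.16), and of 10 macrophage markers 4 were lower (-0.80 to -0.37 against -0.40 to 0.00). Of 4 neutrophil markers 2 were higher (0.19 to 0.93 against -0.20 to -0.10), and of 3 red blood cell markers 1 (0.13 to 0.39 against -0.18 to -0.13). In the same response 1 of 7 thick ascending limb and 1 of 4 distal convoluted tubule markers were lower, and 1 of 4 adipocyte markers was higher. In WT 14.5% of all genes fell and 9.61% rose. Between genotypes under ANG II, 7 of the 10 macrophage, 6 of the 14 proximal tubule and 3 of the 8 endothelial markers were higher in KO, and 2 of the 14 were lower. Of 7 thick ascending limb and 4 distal convoluted tubule markers 1 each was higher. Of 5 intercalated cell, 4 neutrophil and 3 red blood cell markers 1 each was lower. Of all genes, 13.7% were higher and 7.88% lower. The part of these measures and markers in the WT response and in the genotype difference under ANG II was not tested.

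Other measures moved with the KO baseline arrays, where Hspb1, Hsph1 and Hspa1b were high. Of 10 macrophage markers 9 were higher in KO than in WT at baseline, with a mean log2 ratio of 0.88 to 1.48 in KO baseline arrays, -0.40 to 0.00 in WT baseline, -0.80 to -0.37 in WT ANG II and -0.10 to 0.35 in KO ANG II arrays. Of 7 markers of vascular smooth muscle and mesangium 4 were higher, with means of 0.12 to 0.61 in KO baseline against -0.27 to -0.01 in WT baseline arrays. Of 6 podocyte markers 2 were higher, with means of 0.09 to 0.35 against -0.09 to -0.03, and of 8 endothelial markers 1, with means of 0.21 to 0.30 against -0.16 to 0.04. Of 14 proximal tubule markers 1 was higher and 2 were lower, and of 5 lymphocyte and 3 red blood cell markers 1 each was higher. At baseline 4.52% of all genes were higher in KO and 2.04% lower. A ratio has no true 0, so no marker could be called absent. Of 24 immediate early genes, which rise within minutes of a stimulus, 14 were higher at baseline in KO, among them Egr1 by 2.18 (limma, adjusted p = 0.0045) and Fos by 1.96 (limma, adjusted p = 0.00419), and their means were 0.44 to 0.72 in KO baseline against -0.17 to -0.06 in WT baseline arrays. In the KO response 13 of the 24 and 8 of the 10 macrophage markers fell, as Hspb1 did, and 2 of the 24 rose, Egr3 and Nr4a2. Of all genes, 5.73% fell and 4.28% rose in KO. The part of these markers and immediate early genes in the heat shock values was not tested.

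A list of cytosolic co-chaperones and heat shock factors, which also held Hsp70 relatives and metallothioneins among others, had 35 measured genes. Hsf1 was in the list and not among the 35 measured. Of the 35, 7 fell and 3 rose in WT, shares to be read against those of all genes given above (14.5% and 9.61%). Dnaja1 and Dnaja4, Hsp40 proteins that work with Hsp70, fell by 0.60 (limma, adjusted p = 0.00265) and 0.56 (limma, adjusted p = 0.00213) on the log2 scale. Chordc1, an Hsp90 co-chaperone, fell by 0.54 (limma, adjusted p = 0.00625). Fkbp5, an Hsp90 co-chaperone induced by glucocorticoids, rose by 0.96 (limma, adjusted p = 0.00346), and Mt2, a metallothionein, by 0.61 (limma, adjusted p = 0.0115). Dnajc7 rose by 0.59 (limma, adjusted p = 0.000409). In KO 1 of the 35 fell and 0 rose, and the 1 was Hspa2, a relative of Hsp70 known from the testis, with a log2 change of -0.38 (limma, adjusted p = 0.0439).

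Under ANG II, 11 of these 35 listed genes were higher in KO than in WT, where 13.7% of all genes were. Only 1, Dnajc7, was lower, by 0.33 (limma, adjusted p = 0.0159), where 7.88% of all genes were. Dnaja1 exceeded WT by 1.11 (limma, adjusted p = 2.78e-05), Dnaja4 by 1.03 (limma, adjusted p = 2.54e-05) and Chordc1 by 0.99 (limma, adjusted p = 0.000107). Ahsa2 and Ahsa1, of the family that stimulates the ATPase of Hsp90, exceeded WT by 1.11 (limma, adjusted p = 9.06e-05) and 0.62 (limma, adjusted p = 0.00194), and Cacybp by 0.75 (limma, adjusted p = 0.000879). At baseline 6 of the 35 were higher and 0 lower, against 4.52% and 2.04% of all genes. One was Bag3, a nucleotide exchange factor of Hsp70, at 0.42 (limma, adjusted p = 0.00651). The median difference of the list was 0.05 under ANG II and 0.09 at baseline, against -0.02 and -0.04 over all genes. The responses differed for 5 of the 35, 2 higher and 3 lower, against 6.95% and 3.29% of all genes, with Dnaja1 at 0.68 (limma, adjusted p = 0.0172) and Dnaja4 at 0.65 (limma, adjusted p = 0.0135) higher in KO, and Fkbp5 at -0.90 (limma, adjusted p = 0.0481), Mt2 at -0.90 (limma, adjusted p = 0.0177) and Dnajc7 at -0.43 (limma, adjusted p = 0.0355) lower.

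Among 8 other small heat shock protein genes, Hspb8, whose product works with Bag3, was higher in KO at baseline by 1.02 (limma, adjusted p = 0.000384) and fell in KO by 0.80 (limma, adjusted p = 0.0011), with responses that differed by -0.89 (limma, adjusted p = 0.00517). In WT its log2 change was 0.08 (limma, adjusted p = 0.623). Of the other 7, 0 were called at baseline, where 4.52% of all genes were higher and 2.04% lower. In KO 1 rose (Hspb3), where 4.28% of all genes did. In WT 1 fell (Hspb11, a component of intraflagellar transport, by 0.27), a share like the 14.5% of all genes. Under ANG II Hspb11 was higher in KO by 0.24 (limma, adjusted p = 0.0389), where 13.7% of all genes were. Another list held 18 measured genes of mitochondrial chaperones, proteases and protein import (the Tomm and Timm genes), other than Hspd1 and Hspe1. Of these 18, 2 fell in WT, a smaller share than the 14.5% of all genes. The 2 were the import gene Tomm70a by 0.57 (limma, adjusted p = 0.0368) and the protease gene Afg3l2 by 0.39 (limma, adjusted p = 0.013). Another, Hscb, rose by 0.36 (limma, adjusted p = 0.022), where 9.61% of all genes rose. Hspa9, the mitochondrial Hsp70, changed by 0.03 in WT (limma, adjusted p = 0.798) and -0.01 in KO (limma, adjusted p = 0.968). Under ANG II, 3 of the 18 were higher in KO, Afg3l2 by 0.43 (limma, adjusted p = 0.00837), Timm44 by 0.35 (limma, adjusted p = 0.0355) and Tomm40 by 0.33 (limma, adjusted p = 0.0285), and 0 were lower, against 13.7% and 7.88% of all genes.

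Of 14 genes of the cytosolic chaperonin CCT and prefoldin, which fold actin and tubulin, 4 fell in WT and 1 rose, against 14.5% and 9.61% of all genes. The 4 were of prefoldin: Pfdn1 at -0.50 (limma, adjusted p = 0.0108), Pfdn2 at -0.49 (limma, adjusted p = 0.0133), Pfdn4 at -0.43 (limma, adjusted p = 0.00605) and Vbp1 at -0.34 (limma, adjusted p = 0.0144). The 1 was Cct4 at 0.28 (limma, adjusted p = 0.0298). Of 17 chaperones of the endoplasmic reticulum, 8 fell in WT and 0 rose, to be read against the same shares, with a list median of -0.32 against 0.03 over all genes. Serpinh1, the collagen chaperone Hsp47, fell by 0.84 (limma, adjusted p = 0.000397) and Canx, calnexin, by 0.77 (limma, adjusted p = 0.00057). Under ANG II 11 of the 17 were higher in KO and 0 lower, against 13.7% and 7.88% of all genes, and Hspa5, the reticulum's Hsp70, exceeded WT by 0.66 (limma, adjusted p = 0.00553).

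The genes whose leading probe set followed the mean of the 6 cytosolic genes most closely over the 12 arrays, by Pearson correlation, were Senp2 (r = 0.97), Cacybp (0.97), Dnajb9 (0.96), Chordc1 (0.96), Ahsa2 (0.96), Banf1 (0.96), Tbcb (0.96), Ap3s1 (0.95), Dnaja1 (0.95) and Slc39a11 (0.95). These are descriptions over 12 points that share 4 groups. With Hspa8 read by its probe set 1420622_a_at in place of 1431182_at, a choice made after its values were seen, 4 of the 10 were among the closest 10, namely Cacybp, Chordc1, Ahsa2 and Dnaja1.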

How the data were processed

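RNA from whole, snap-frozen kidneys was hybridised to 12 arrays, 1 for each mouse. The submitters' processing notes name RMA. The deposited values were linear ratios to each probe set's median over the 12 arrays, as read from the values (median within 0.002 of 1 for 45099 of 45101 probe sets); the division is not stated. Intensity, and so signal over background, is unknown, and no filter on dim probe sets was possible. After 64 control probe sets were left out, log2 ratios of 45037 probe sets were fitted with 4 group means on all 12 arrays with limma 3.58.1 (R 4.3.3; 8 residual and 5.83 prior degrees of freedom) and checked on simulated data. Tests were two-sided with Benjamini-Hochberg adjustment per comparison, over 5 comparisons. Called, rose, fell, higher and lower mean an adjusted p under 0.05, and SE are moderated. Array annotation gave 34945 probe sets 1 symbol, 932 several and 9160 none. A gene's leading probe set is a plain _at before _a_at, _s_at and _x_at, then the lowest number.

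The members, lists and tests were chosen with earlier results of these data known. All members are described. From each list, genes named were among the 6 called genes with the largest changes whose groups do not overlap. For the difference of the responses no filter on overlap was used. Hspa9, Egr3 and Nr4a2, and Dnajc7 under ANG II, lie outside these rules and were named after their values were seen. Promoters, gene positions and names are from RefSeq, GRCm38.p6. The labels share replicate numbers between groups. Arrays of one number deviated together from their group means in WT (r = 0.186, 0.183 and 0.128 between baseline and ANG II). In the other comparisons r was -0.157 to 0.101. The values given are from the fit without pairs. A block on the numbers was run as an alternative and changed no call in the WT response. Alternatives were a variance trend, the 2 groups alone, quantile normalization, median centring, a filter on low spread, a pseudocount of 0.1, array weights, a replicate block, means over a gene's probe sets, and each array left out.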

Additional observations from a re-analysis of the deposited data

Results flagged for a closer look

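In 5 genes the response to ANG II differed between KO and WT by limma's test of the difference itself. Values are KO response minus WT response of the leading probe set on the log2 scale. For Hspb1 the difference was -1.039 (WT 0.20, KO -0.83). For Hspe1 it was 0.7506 (WT -0.54, KO 0.21), and for Hspd1 0.4713 (WT -0.40, KO 0.07). For Dnajb1 it was 0.7205 (WT -0.51, KO 0.21), and for Hsp90aa1 0.657 (WT -0.47, KO 0.18). Hspb1 differed in the opposite direction to the other 4 genes. Among these 5, the differences of Hspb1 and Hspe1 were called under every alternative run, while those of the other 3 were each lost under quantile normalization and without some single arrays. That of Hsp90aa1 was also lost with the replicate block (adjusted p = 0.0561) and a pseudocount of 0.1, and that of Dnajb1 with the mean of its probe sets. No test for outlying arrays was run within groups of 3; each array was left out in turn instead.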

How the results depend on the processing

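Of the 41 called results of single heat shock probe sets, 0 changed sign under the alternatives run. Of the 69 not called, 14 changed sign under at least 1, 53 times in all. Under quantile normalization called heat shock probe sets numbered 4 in the WT response (9 as deposited), 2 in the difference of the responses (8) and 9 between genotypes under ANG II (14). Over all probe sets it gave 5704 in the WT response (1878 higher and 3826 lower, against 4888 and 5988), 2867 in the difference (4404 as deposited) and 4063 under ANG II (2879 higher and 1184 lower, against 5254 and 3680). Of 110 single probe set results it ended 20 calls and added 1. With array weights, 6962 of all probe sets were called in the KO response (4465 with equal weights) and 4849 between genotypes at baseline (2936), and with the 2 groups alone 4991 under ANG II (8934). Leaving out single arrays gave 4 to 9 heat shock probe sets in the difference and 2 to 7 at baseline; over all probe sets it gave 5773 to 12277 in the WT response, 2069 to 5183 in the KO response, 2484 to 5104 in the difference, 1107 to 3329 at baseline and 5021 to 10743 under ANG II. Fewer arrays were fitted in these settings. The cause of the other shifts was not tested. A variance trend, median centring, the low spread filter and the 2 groups alone changed no call of a heat shock probe set; the filter left out 3 of the 22.

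With the replicate block, 9 heat shock probe sets were called in the WT response, 3 in the KO response, 7 in the difference, 5 at baseline and 12 under ANG II. The block ended 5 calls, those of Hsp90aa1 1426645_at in the difference (adjusted p = 0.0561), of 2 Hspa1b probe sets at baseline (adjusted p = 0.0513 and 0.0555) and of 2 under ANG II (adjusted p = 0.0511 and 0.0601). Same-numbered arrays deviated with r of -0.157 to 0.101 in the comparisons other than the WT response, and 6 of 12 arrays correlated best with an array of their own number. The ratios keep no intensity, so what signal over background limits is unknown.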

Other observations

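Some heat shock genes also varied together among arrays of the same group. With each group's mean removed, the log2 ratios of Hspd1 and Hspe1 correlated at r = 0.83 over the 12 arrays, those of Hsph1 and Hspa1b at 0.82, and those of Hspd1 and Hsp90aa1 at 0.73. For Hspb1 the same values lay between -0.36 with Dnajb1 and 0.50 with Hspa8. Low values were not limited to Hspb1. Hspa8 gave -0.23 with Dnajb1 and -0.08 with Hspa1a, and Dnajb1 gave -0.05 with Hsp90aa1. Across all 12 arrays with the group means kept, Hspd1 and Hspe1 correlated at 0.95, and Hsp90aa1 and Hsph1 at 0.92. With the other members Hspb1 correlated at 0.16 (Hspd1) to 0.68 (Hspa1b). These values are descriptions over 12 arrays that share their processing.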
